A study of Homo sapiens with 21 samples.

Results

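The HOX genes are the 39 homeobox genes of the clusters HOXA, HOXB, HOXC and HOXD. They were taken as the rows of the deposited expression table with the biotype protein_coding and a symbol of HOX, a cluster letter and a number, which gave 39 of 60728 genes and of 19988 protein_coding genes. By cluster they are 11 genes in HOXA, 10 in HOXB, 9 in HOXC and 9 in HOXD. No measured value entered this choice.

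HOX proteins are transcription factors that bind DNA through a homeodomain, often together with PBX, MEIS and PKNOX partners. Within each cluster the genes lie in a fixed order that follows the body region in which each is expressed in the embryo, and genes with the same number in different clusters are paralogues. They pattern the hindbrain, spinal cord, limbs and neural crest, the embryonic tissue from which neuroblastoma arises, and in development mSWI/SNF remodellers oppose Polycomb repression at the HOX clusters.

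Polyadenylated RNA of SK-N-BE(2), an established human neuroblastoma cell line with many copies of MYCN, was sequenced 72 h after lentiviral transduction with shRNAs, short hairpin RNAs that lower the transcript they match. The 21 libraries fall into 7 conditions of 3, described as biological triplicates: a condition labelled Control with a non-silencing shRNA, those labelled shARID1A.2 and shARID1A.4, those labelled shARID1B.2 and shARID1B.3, and those labelled shARID1A/B.2.3 and shARID1A/B.4.2. ARID1A and ARID1B are the alternative structural subunits of the BAF complex, and the comparisons ask what lowering either or both does to transcript levels. All conditions come from 1 line of transduced cells, and nothing in the sources used here ties a library to a separate transduction. Each deposited value is the number of reads on a gene divided by a size factor of its library, and the libraries held 27954334 to 41077638 reads with a median of 34973565. In bulk RNA, fewer cells with a transcript and less of it per cell cannot be told apart.

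The silenced genes did not follow the labels. ARID1A (chr1:26693236-26782110, GRCh38) averaged 6311 ± 191 (SD, n = 3) in control libraries, 2146 ± 32.1 in the libraries labelled shARID1A.2, 2243 ± 74.8 under shARID1A.4, 1920.4 ± 40.2 under shARID1B.2 and 2479 ± 28.5 under shARID1B.3. Under shARID1A/B.2.3 it was 5659 ± 130.0 and under shARID1A/B.4.2 5440.0 ± 130.1. ARID1B (chr6:156776020-157210779) had 5796 ± 7.47 in the control, 2241 ± 15.3 and 3100.1 ± 31.5 under the shARID1A labels, 5004 ± 78.9 and 6091 ± 79.2 under the shARID1B labels, and 2599 ± 55.5 and 1907 ± 41.3 under the shARID1A/B labels. So ARID1A and ARID1B were both low in the libraries labelled shARID1A, ARID1A was low in those labelled shARID1B, and ARID1B was low in those labelled shARID1A/B. Against the control, ARID1A differed on the log2 scale by -1.56 and -1.49 under the shARID1A labels, -1.72 and -1.35 under shARID1B, and -0.16 and -0.21 under shARID1A/B. For ARID1B the differences were -1.37 and -0.90 under shARID1A, -0.21 and 0.07 under shARID1B, and -1.16 and -1.60 under shARID1A/B. The conditions are called by their labels below, so every direction is that of the libraries labelled so.

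**Figure D1:**
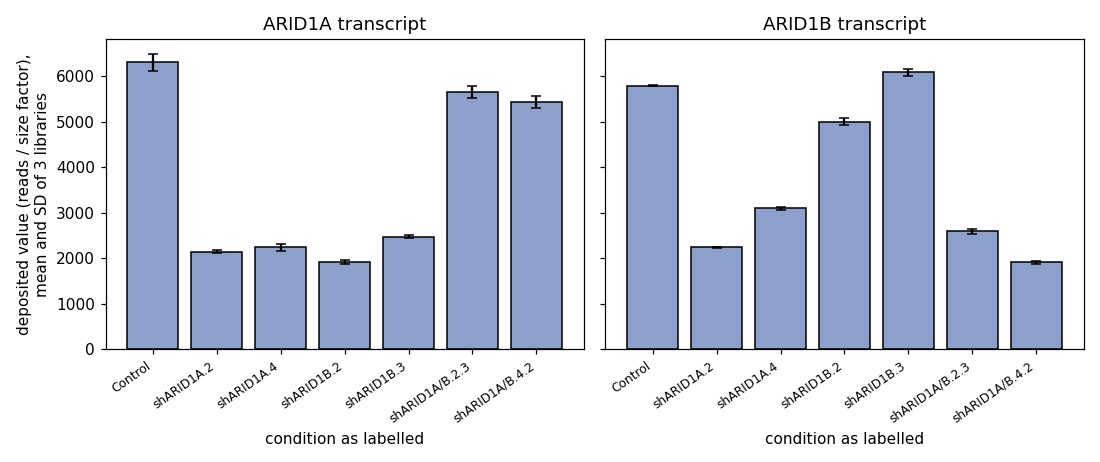
ARID1A and ARID1B in the 7 conditions. Bars are the mean of 3 libraries in deposited values (reads divided by size factor) and error bars 1 SD. ARID1A is low under the shARID1A and shARID1B labels, and ARID1B under the shARID1A and shARID1A/B labels.

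Because paralogues share their homeobox, a stretch of it is given for genes numbered 9 and 8, where silent and expressed genes stood side by side. Each is 60 bases of coding sequence inside 1 exon, 5′ to 3′, read from GENCODE release 29 transcripts, and the capitals mark 15 bases that encode part of the recognition helix, which contacts the DNA. A match to the conserved bases of this stretch was found in all 39 members. The sequences lie at chr17:48622945-48623004 (- strand), chr12:54002561-54002620 (+ strand), chr2:176124065-176124124 (+ strand), chr17:48613343-48613402 (- strand) and chr2:176131424-176131483 (+ strand) in GRCh38.
HOXB9: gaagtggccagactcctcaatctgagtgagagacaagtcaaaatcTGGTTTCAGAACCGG
HOXC9: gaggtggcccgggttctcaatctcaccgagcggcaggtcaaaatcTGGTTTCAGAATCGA
HOXD9: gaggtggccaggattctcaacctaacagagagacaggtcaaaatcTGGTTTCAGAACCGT
HOXB8: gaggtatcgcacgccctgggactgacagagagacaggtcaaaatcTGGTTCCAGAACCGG
HOXD8: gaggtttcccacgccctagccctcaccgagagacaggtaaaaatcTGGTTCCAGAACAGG
Over the 180 bases of the homeobox, HOXC9 was identical to the near-silent HOXB9 at 82.2% of positions and HOXD9 at 84.4%, and HOXD8 was identical to the near-silent HOXB8 at 78.3%. The longest run of bases shared with a gene of another cluster was 62 for HOXD3 (with HOXB3), 40 for HOXD9 (with HOXB9), 38 for HOXD4 (with HOXB8), and 31 or fewer for the other 10 genes with a mean value of at least 10. Over all libraries, HOXB3 had 3 reads, HOXB8 had 1 and HOXB9 had 8.

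HOXA and HOXB were silent and HOXC and HOXD expressed, in all 7 conditions. Over the 21 libraries together, the 11 genes of HOXA (chr7:27092993-27200106) had 12 reads, at most 2 in a library, and the 10 genes of HOXB (chr17:48528526-48729178) had 33, at most 6 in a library. The 9 genes of HOXC (chr12:53938765-54056030) had 99564 reads, from 2895 to 5944 a library, and the 9 genes of HOXD (chr2:176092891-176190907) had 37981, from 1295 to 2218 a library. HOXA and HOXB were thus near 0 whichever of ARID1A and ARID1B was low.

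The members at 0 in every library were 10 of 39, among them HOXA2, HOXA3, HOXA5, HOXA6, HOXA9, HOXB1, HOXB4, HOXB5 and HOXB6. Of all 19988 protein_coding genes, 2002 were at 0 throughout. A count of 0 in a library allows up to 3 reads, a value of 2.32 to 3.57 depending on the library, and 0 over all libraries allows up to 3 of 724347048 reads, for counting error only. In all, 21 members had fewer than 3 reads in every library and 25 fewer than 10.

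A further 8 members never exceeded 1 read. The single read of HOXA4 was in shARID1A.4 replicate 1 and that of HOXB8 in shARID1B.2 replicate 2. HOXA11 had its reads in shARID1B.3 replicate 2 and shARID1A/B.2.3 replicate 2, HOXA13 in shARID1A.4 replicate 1 and shARID1B.3 replicate 2, HOXB7 in shARID1A/B.4.2 replicates 2 and 3, and HOXB3 in control replicate 1, shARID1B.2 replicate 3 and shARID1A/B.4.2 replicate 3. HOXB2 and HOXD12 had 1 read in each of 6 libraries. Spread over 5 conditions at most, these reads were too few to compare. HOXA7 reached 2 reads (shARID1A.2 replicate 1), HOXA10 2 (shARID1A/B.2.3 replicate 1), HOXC12 2 (shARID1A/B.4.2 replicate 2), HOXB9 3 (shARID1A/B.2.3 replicate 1) and HOXB13 3 (shARID1A/B.4.2 replicate 3). HOXC13 reached 5 reads under shARID1A.4 replicate 2 and HOXD11 9 under shARID1A/B.4.2 replicate 3, with reads in 15 and 17 of the 21 libraries. HOXC12 and HOXC13, a gene of hair and nail, lie at the posterior end of HOXC and were its low genes. Those of HOXD were HOXD11 and HOXD12, which pattern the limb, while HOXD13 beyond them had reads in every library.

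**Figure D2:**
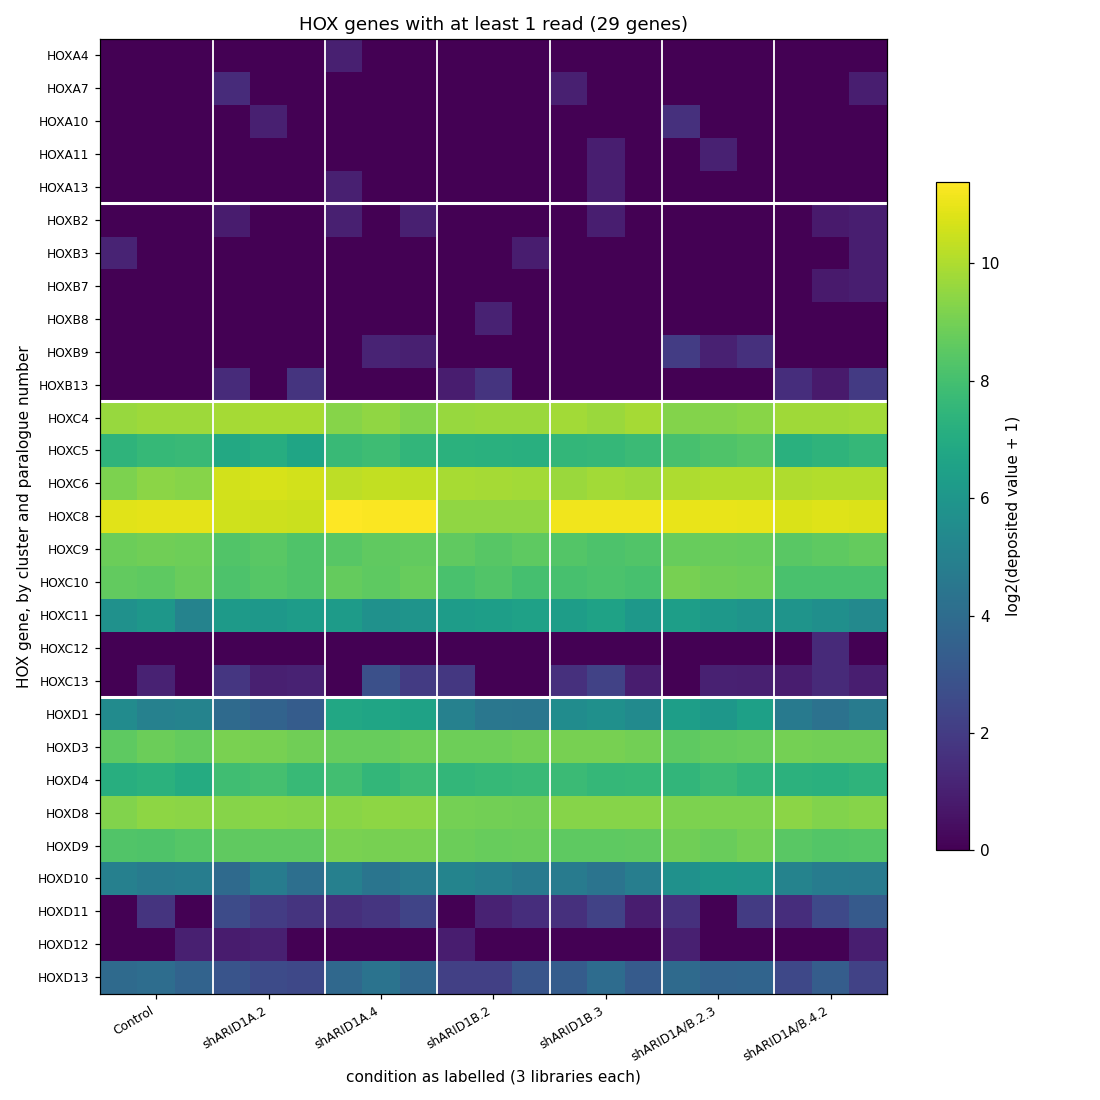
The 29 HOX genes with at least 1 read (rows, by cluster and number) in the 21 libraries (columns, 3 per condition), coloured by log2 of the deposited value plus 1. The rows of HOXA and HOXB are near 0 throughout, while 7 genes of HOXC and 6 of HOXD have a mean value of at least 10, and none of these 13 rows falls to 0 in a library.

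The promoters at hand were compared by their base composition, with no test. RefSeq windows of 300 bases (250 before and 50 after the start, GRCh38.p14) were matched for 20 of the 39 genes. HOXC4 and HOXC5 have the same window, which leaves 19, of which 6 belong to genes with a mean value of at least 10 and 13 to genes below it. The median GC content was 59.0% in the expressed and 58.0% in the other genes, beside 58.7% over 35116 promoters, and the median ratio of observed to expected CpG was 0.866 in the expressed and 0.875 in the other genes, beside 0.579 over all promoters. The upstream parts of 3 windows are shown: HOXD1, whose level moved the most, HOXD13, the detected gene with TATAAA, and HOXA9, at 0 throughout. Capitals mark TATAAA on either strand, and the bases of HOXD1 stop at the GENCODE start. Those of HOXA9 lie before its RefSeq start but inside its GENCODE gene (chr7:27162435-27175180). The windows are chr2:176188418-176188578 (+ strand), chr2:176092471-176092720 (+ strand) and chr7:27165538-27165787 (- strand).
HOXD1: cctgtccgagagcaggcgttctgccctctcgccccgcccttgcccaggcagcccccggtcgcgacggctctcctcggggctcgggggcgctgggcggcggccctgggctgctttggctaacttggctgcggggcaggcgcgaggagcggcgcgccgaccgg
HOXD13: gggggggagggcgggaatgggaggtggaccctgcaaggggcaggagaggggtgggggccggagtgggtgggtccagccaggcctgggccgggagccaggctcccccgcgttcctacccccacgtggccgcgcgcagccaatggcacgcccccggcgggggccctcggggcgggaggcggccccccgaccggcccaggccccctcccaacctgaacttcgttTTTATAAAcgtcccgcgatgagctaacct
HOXA9: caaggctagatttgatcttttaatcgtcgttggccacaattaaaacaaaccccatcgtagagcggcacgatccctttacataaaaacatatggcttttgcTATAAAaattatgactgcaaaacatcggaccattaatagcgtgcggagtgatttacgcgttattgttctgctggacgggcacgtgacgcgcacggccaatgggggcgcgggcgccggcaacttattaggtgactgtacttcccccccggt
TATAAA was found in 4 of the 19 windows (HOXA3, HOXA9, HOXA10 and HOXD13) beside 11.5% of all promoters. TGATTNAT, a core site of PBX with HOX proteins, was found in 2 (HOXA2 and HOXD11) beside 2.82%, and AGGTCA, the half-site of retinoic acid receptors, and TGANTCA, the AP-1 site, in 0, beside 13.8% and 7.71%.

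In the control, HOXC8 was the highest member for its length. Its level was 1006 per kb of exon, beside 299.7 for HOXC4, 280.2 for HOXC9, 249 for HOXD8, 176 for HOXC6, 174 for HOXC10, 168 for HOXD9, 117 for HOXD3, 105 for HOXC5 and 95.7 for HOXD4. HOXD1, HOXC11, HOXD10 and HOXD13 were low, with 18.2, 15.3, 10.4 and 6.11 per kb. These are levels, and no difference between members was tested. Several members overlap other genes: HOXC6 shares exons with HOXC4 and 73 exonic bases with HOXC9, HOXC5 shares 59.9% of its exonic bases with AC012531.2 and a further gene annotated with the symbol HOXC5, HOXD4 80.5% and HOXD3 62.2% with the transcript AC009336.2, and HOXD10 452 bases with HOXD11. HOXD1 overlaps the antisense genes HAGLR and AC009336.3 over 58.1% of its exonic bases. How reads in shared exons were split, and whether counting used the strand, is not given in the sources used here.

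For the comparisons with the control, 14 of the 39 members had enough reads to be tested among 18584 genes by the moderated test of limma (log2 of the value plus 1, with a variance trend), and 25 did not. The 6 comparisons share the same 3 control libraries. A gene is called where its p-value adjusted over all 18584 genes is under 0.05, a threshold most genes passed. With both ARID1A and ARID1B low, 6 members were called higher and 7 lower under shARID1A.2 (all genes called: 76.1%), and 5 higher and 2 lower under shARID1A.4 (73.6%). With ARID1A low, 5 were called higher and 7 lower under shARID1B.2 (65.6%), and 6 higher and 2 lower under shARID1B.3 (63.9%). With ARID1B low, 9 were called higher and 2 lower under shARID1A/B.2.3 (69.2%), and 2 higher and 5 lower under shARID1A/B.4.2 (71.2%). Members were called in 7 to 13 of 14 tests a comparison, to be read against those shares of all genes.

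The balance of these counts depended on the scaling of the libraries. Under shARID1A/B.4.2, 6 members were called higher and 2 lower when libraries were scaled to their total reads, and 6 and 3 with upper-quartile scaling, which moved the median of all genes by up to 0.18 there. Under shARID1A.2 both scalings gave 7 higher and 6 lower, and under shARID1B.2 both gave 5 and 5. The median log2 fold change of the members tested was -0.20 under shARID1A.2, 0.12 under shARID1A.4, -0.18 under shARID1B.2, 0.17 under shARID1B.3, 0.36 under shARID1A/B.2.3 and -0.02 under shARID1A/B.4.2, where that of all genes was 0.01 to 0.02. Changes of at least 2-fold that were called numbered 3 under shARID1A.2 (24.8% of all genes), 2 under shARID1A.4 (21.4%), 2 under shARID1B.2 (12.0%), 0 under shARID1B.3 (11.8%), 2 under shARID1A/B.2.3 (16.1%) and 1 under shARID1A/B.4.2 (18.4%).

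**Figure D3:**
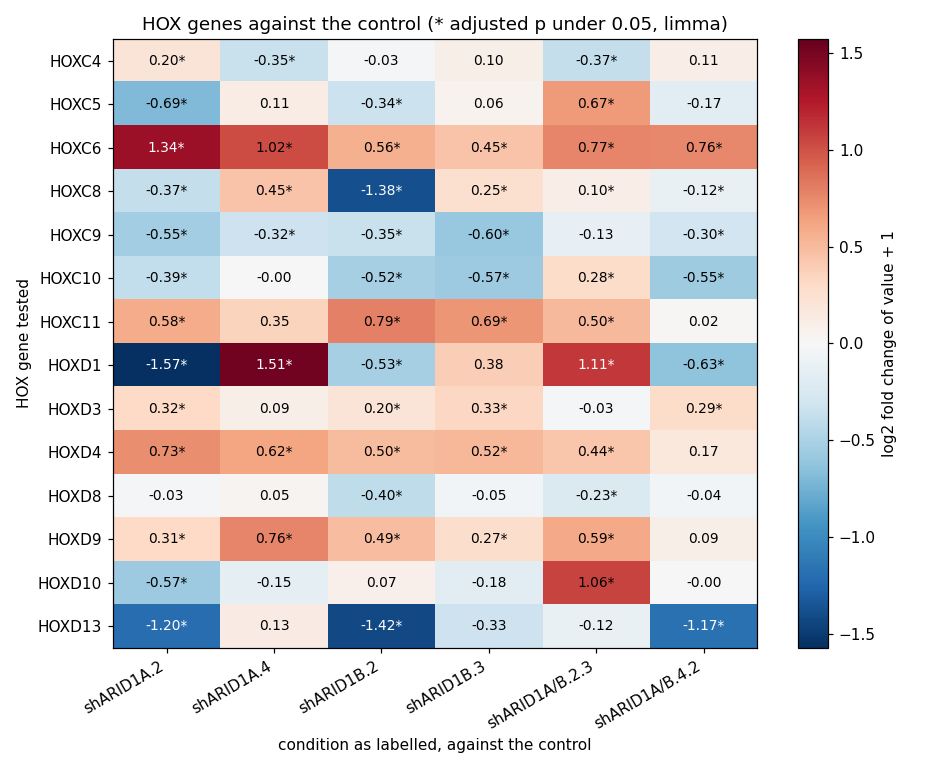
Log2 fold change of the value plus 1 against the control for the 14 HOX genes tested (rows) in the 6 other conditions (columns, by label). Numbers are the fold changes and an asterisk marks an adjusted p under 0.05 in limma. HOXC6 is positive and called in every column, while HOXD1 and HOXC8 change sign between columns.

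HOXC6 rose in every condition. It is a gene of the middle of HOXC that takes part in the identity of brachial motor neurons. HOXC6 had values of 566, 672 and 632 in the control libraries, of 1564, 1634 and 1543 in those labelled shARID1A.2, and of 1232, 1308 and 1255 in those labelled shARID1A.4. In the same order of libraries it had 938, 933 and 886 under shARID1B.2, 813, 891 and 849.7 under shARID1B.3, 1023, 1078 and 1080.0 under shARID1A/B.2.3, and 1026, 1059 and 1071 under shARID1A/B.4.2. No library of the 6 conditions overlapped the control, and the highest levels were those of the libraries labelled shARID1A, in which ARID1A and ARID1B were both low. The log2 fold change was 1.34 ± 0.05 (SE) under shARID1A.2 (2.54-fold, limma adjusted p = 5.70e-18), 1.02 under shARID1A.4, 0.56 under shARID1B.2, 0.45 under shARID1B.3, 0.77 under shARID1A/B.2.3 and 0.76 under shARID1A/B.4.2. It was the only member called higher in all 6 comparisons, as were 6.52% of all genes. With scaling to total reads or to the upper quartile HOXD4 and HOXD9 were too.

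Between labels, HOXC6 also differed beyond the spread of the libraries. The mean of the conditions labelled shARID1A was higher than that of shARID1B by 0.68 ± 0.03 on the log2 scale (limma adjusted p = 9.97e-15) and higher than that of shARID1A/B by 0.42 (adjusted p = 1.79e-10), and shARID1B was lower than shARID1A/B (-0.26, adjusted p = 4.70e-07). For none of these 3 did the libraries overlap. The p-values of these label means measure the spread of libraries within conditions and leave out the difference between the 2 conditions of a label. HOXC8, for instance, was called higher for shARID1A against shARID1B (0.61) though the libraries of the labels overlapped. In these label means 5 members were called higher and 1 lower for shARID1A against shARID1B (67.3% of all genes called, and 6 and 0 with upper-quartile scaling), 4 and 3 for shARID1A against shARID1A/B (59.2%), and 4 and 7 for shARID1B against shARID1A/B (70.2%).

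HOXC4, which shares exons with HOXC6, and HOXC5 lie on its anterior side, and each moved in both directions. HOXC4 stood at 785, 827 and 838 in the control, 925, 935 and 949.9 under shARID1A.2, 630.3, 711 and 589.8 under shARID1A.4 and 784, 808 and 815 under shARID1B.2. For HOXC4 the values were 884, 823 and 914 under shARID1B.3, 617, 621 and 651 under shARID1A/B.2.3 and 875, 867 and 894 under shARID1A/B.4.2. HOXC4, at the anterior end of the cluster, rose by 0.20 under shARID1A.2 (limma adjusted p = 0.00146), and fell under shARID1A.4 (-0.35) and shARID1A/B.2.3 (-0.37). HOXC5 stood at 167, 195 and 206 in the control, 116, 134 and 101 under shARID1A.2, 209.8, 229.5 and 177 under shARID1A.4 and 155, 148 and 143 under shARID1B.2. For HOXC5 the values were 186, 188 and 215 under shARID1B.3, 269, 302 and 336 under shARID1A/B.2.3 and 147, 169 and 188 under shARID1A/B.4.2. HOXC5 fell under shARID1A.2 (-0.69 ± 0.12, limma adjusted p = 1.17e-05) and shARID1B.2 (-0.34), and rose under shARID1A/B.2.3 (0.67). The fall under shARID1B.2 was not called without control replicate 3 or with either other scaling.

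HOXC8, which patterns brachial motor neurons and the thoracic skeleton, moved in both directions. HOXC8 stood at 1849, 1932 and 1922 in the control, 1519.8, 1447 and 1433 under shARID1A.2, 2668, 2576 and 2539 under shARID1A.4 and 730.0, 729 and 722 under shARID1B.2. For HOXC8 the values were 2241, 2275 and 2256 under shARID1B.3, 2072, 2051 and 1998 under shARID1A/B.2.3 and 1723, 1796 and 1734 under shARID1A/B.4.2. All 6 conditions lay outside the range of the control, with shARID1A.4 and shARID1B.3 above it and shARID1A.2 and shARID1B.2 below it. The largest change was the fall under shARID1B.2 (-1.38 ± 0.03, 0.383 of the control, limma adjusted p = 5.14e-22), against -0.37 under shARID1A.2, 0.45 under shARID1A.4, 0.25 under shARID1B.3 and 0.10 under shARID1A/B.2.3. The fall of -0.12 under shARID1A/B.4.2 took the opposite sign with other scalings (0.07 with total reads, 0.04 with the upper quartile).

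HOXC9, which specifies thoracic spinal cord and is known as a differentiation gene in neuroblastoma, was lower in all 6 conditions and called in 5. HOXC9 stood at 452, 487 and 472 in the control, 309.9, 352 and 305 under shARID1A.2, 346, 383 and 400.2 under shARID1A.4 and 393, 340.4 and 377 under shARID1B.2. For HOXC9 the values were 322, 297 and 313 under shARID1B.3, 421, 435 and 430.1 under shARID1A/B.2.3 and 358, 375 and 415 under shARID1A/B.4.2. None of these libraries reached the control range of 452 to 487, the nearest being those of shARID1A/B.2.3. The log2 fold change was -0.55 under shARID1A.2 (± 0.07, limma adjusted p = 2.00e-07), -0.32 under shARID1A.4, -0.35 under shARID1B.2, -0.60 under shARID1B.3 and -0.30 under shARID1A/B.4.2, the last not called with other scalings. Under shARID1A/B.2.3 it was -0.13 (95% interval -0.29 to 0.02, adjusted p = 0.0988).

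HOXC10 and HOXC11 were the expressed genes nearest the silent end of HOXC. HOXC10 stood at 403, 376 and 434 in the control, 292, 333 and 298 under shARID1A.2, 409, 379 and 423 under shARID1A.4 and 277, 309 and 259.7 under shARID1B.2. For HOXC10 the values were 267, 282 and 266 under shARID1B.3, 522, 487 and 468 under shARID1A/B.2.3 and 272, 273 and 279 under shARID1A/B.4.2. HOXC10, a gene of lumbar motor neurons, was below the control in 4 conditions and above it under shARID1A/B.2.3. It fell under shARID1A.2 (-0.39), shARID1B.2 (-0.52), shARID1B.3 (-0.57, limma adjusted p = 1.85e-07) and shARID1A/B.4.2 (-0.55), rose under shARID1A/B.2.3 (0.28), and differed by -0.0014 (95% interval -0.16 to 0.15) under shARID1A.4. HOXC11 stood at 52.9, 63.8 and 32.9 in the control, 73.1, 67.0 and 78.0 under shARID1A.2, 75.8, 52.3 and 58.9 under shARID1A.4 and 77.9, 83.3 and 90.7 under shARID1B.2. For HOXC11 the values were 78.7, 92.2 and 66.5 under shARID1B.3, 83.0, 66.7 and 58.4 under shARID1A/B.2.3 and 58.3, 49.4 and 40.3 under shARID1A/B.4.2. The control libraries of HOXC11 spread from 32.9 to 63.8 and overlapped 3 of the conditions. It rose under shARID1B.2 (0.79 ± 0.20, limma adjusted p = 0.00149), shARID1B.3 (0.69), shARID1A.2 (0.58) and shARID1A/B.2.3 (0.50), and without control replicate 3, the lowest, the last 3 of these were not called. The last was also lost without shARID1A/B.2.3 replicate 1 or 2 and with DESeq2.

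In HOXD, HOXD4 and HOXD9 were higher in all 6 conditions and called in 5. HOXD4 is expressed in the hindbrain and answers to retinoic acid. HOXD4 stood at 141, 152 and 127 in the control, 238, 256 and 205 under shARID1A.2, 245, 187 and 219.6 under shARID1A.4 and 186, 197 and 211 under shARID1B.2. For HOXD4 the values were 213, 191 and 198 under shARID1B.3, 177, 216 and 180.0 under shARID1A/B.2.3 and 158, 149 and 166 under shARID1A/B.4.2. Every library outside shARID1A/B.4.2 was above the highest control library. HOXD4 rose by 0.73 ± 0.11 under shARID1A.2 (limma adjusted p = 1.10e-06), 0.62 under shARID1A.4, 0.50 under shARID1B.2, 0.52 under shARID1B.3 and 0.44 under shARID1A/B.2.3, and was at 0.17 (95% interval -0.06 to 0.40) under shARID1A/B.4.2. Since 80.5% of its exonic bases are shared with AC009336.2, reads of both genes may be mixed in these values.

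HOXD9 stood at 309, 301 and 332 in the control, 394, 386 and 385 under shARID1A.2, 546, 521 and 533 under shARID1A.4 and 449, 432 and 443 under shARID1B.2. For HOXD9 the values were 376, 374 and 388 under shARID1B.3, 488, 442 and 491 under shARID1A/B.2.3 and 349, 324 and 329 under shARID1A/B.4.2. For HOXD9, a gene of the posterior spinal cord and limb, the conditions other than shARID1A/B.4.2 did not overlap the control either. It rose most under shARID1A.4 (0.76 ± 0.05, limma adjusted p = 3.00e-12) and shARID1A/B.2.3 (0.59), followed by shARID1B.2 (0.49), shARID1A.2 (0.31) and shARID1B.3 (0.27), and was at 0.09 (95% interval -0.03 to 0.20) under shARID1A/B.4.2.

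HOXD3 rose in 4 conditions and HOXD8 fell in 2. HOXD3 stood at 377, 458 and 409.8 in the control, 542, 521 and 484 under shARID1A.2, 429, 426 and 465 under shARID1A.4 and 466, 471 and 491 under shARID1B.2. For HOXD3 the values were 525, 531 and 502 under shARID1B.3, 381, 413 and 426 under shARID1A/B.2.3 and 514, 501 and 501 under shARID1A/B.4.2. HOXD3, known for its role in cell adhesion and angiogenesis, rose by 0.33 under shARID1B.3 (limma adjusted p = 7.81e-05), 0.32 under shARID1A.2, 0.29 under shARID1A/B.4.2 and 0.20 under shARID1B.2, the last not called without control replicate 1. HOXD8 stood at 606, 687 and 673 in the control, 628, 654 and 639 under shARID1A.2, 649.7, 699 and 679.6 under shARID1A.4 and 508, 497 and 478 under shARID1B.2. For HOXD8 the values were 634, 638 and 629 under shARID1B.3, 567, 554 and 555 under shARID1A/B.2.3 and 678, 594 and 641 under shARID1A/B.4.2. HOXD8 fell under shARID1B.2 (-0.40, limma adjusted p = 1.85e-07) and shARID1A/B.2.3 (-0.23), and elsewhere lay between -0.05 and 0.05, with values of 0.14 under shARID1A.2 and 0.15 under shARID1A/B.4.2 when libraries were scaled to their total reads.

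The low members of HOXD that were tested were HOXD1, HOXD10 and HOXD13. HOXD1 lies at the anterior end of the cluster and takes part in the wiring of pain-sensing neurons. HOXD1 stood at 43.5, 31.3 and 32.9 in the control, 14.1, 11.3 and 8.91 under shARID1A.2, 114, 103 and 93.8 under shARID1A.4 and 30.6, 22.0 and 21.3 under shARID1B.2. For HOXD1 the values were 45.8, 51.3 and 43.2 under shARID1B.3, 83.0, 64.6 and 88.5 under shARID1A/B.2.3 and 24.6, 18.5 and 25.3 under shARID1A/B.4.2. The levels of shARID1A.4 and shARID1A/B.2.3 were above, and those of shARID1A.2, shARID1B.2 and shARID1A/B.4.2 below, every control library. HOXD1 fell under shARID1A.2 (-1.57 ± 0.20, 0.336 of the control, limma adjusted p = 1.93e-07) and rose under shARID1A.4 (1.51, 2.86-fold, adjusted p = 3.69e-07), though ARID1A and ARID1B were low in both. It rose by 1.11 under shARID1A/B.2.3. The falls under shARID1A/B.4.2 (-0.63) and shARID1B.2 (-0.53) were not called without control replicate 1 or with total-read scaling. The former was also lost without shARID1A/B.4.2 replicate 2, and the latter without shARID1B.2 replicate 2 or 3. That under shARID1B.2 was lost too with DESeq2, with upper-quartile scaling, without the filter and in a fit of only the conditions compared.

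HOXD10 stood at 30.5, 25.7 and 27.7 in the control, 14.1, 26.8 and 16.7 under shARID1A.2, 30.1, 20.2 and 25.9 under shARID1A.4 and 34.1, 30.1 and 24.9 under shARID1B.2. For HOXD10 the values were 25.9, 19.9 and 28.5 under shARID1B.3, 52.6, 63.6 and 62.3 under shARID1A/B.2.3 and 32.8, 26.3 and 25.3 under shARID1A/B.4.2. HOXD10, a gene of the lumbar spinal cord, rose under shARID1A/B.2.3 (1.06 ± 0.23, limma adjusted p = 2.31e-04), where its libraries were above all others. Its difference under shARID1A.2 (-0.57, adjusted p = 0.0279) overlapped the control and was not called by edgeR, by DESeq2 or without any of 4 libraries (control replicates 1 and 3, shARID1A.2 replicates 1 and 3). HOXD13 stood at 14.1, 15.7 and 11.3 in the control, 6.65, 5.15 and 4.45 under shARID1A.2, 13.6, 19.0 and 13.0 under shARID1A.4 and 3.50, 3.47 and 7.11 under shARID1B.2. For HOXD13 the values were 8.96, 15.2 and 8.63 under shARID1B.3, 14.2, 11.5 and 11.7 under shARID1A/B.2.3 and 4.55, 9.27 and 3.75 under shARID1A/B.4.2. HOXD13, which shapes the digits, averaged just under 10 and was the lowest member tested. It fell under shARID1B.2 (-1.42 ± 0.35, limma adjusted p = 0.00113), shARID1A.2 (-1.20) and shARID1A/B.4.2 (-1.17), with no library of these as high as the lowest control.

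**Figure D4:**
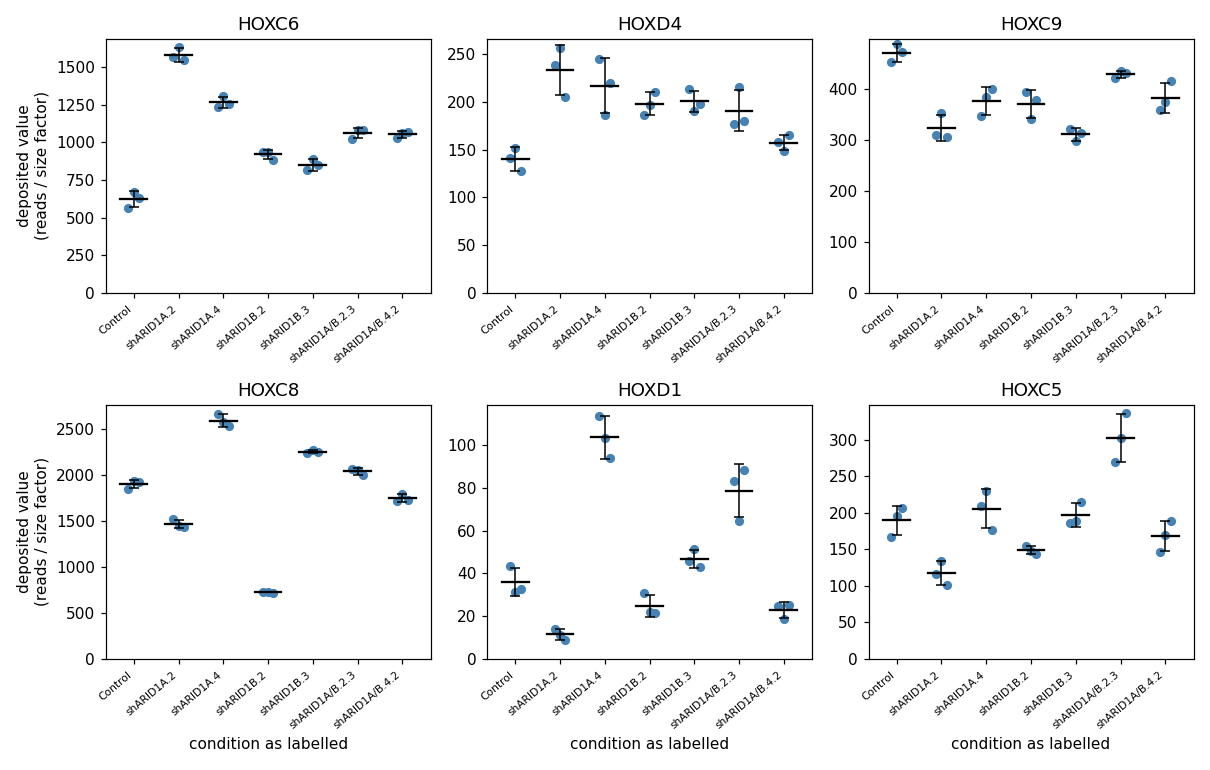
Deposited values (reads divided by size factor) of HOXC6, HOXD4, HOXC9, HOXC8, HOXD1 and HOXC5 in every library by condition, on axes from 0. Points are libraries, horizontal lines the mean of 3 and error bars 1 SD. HOXC6 is above the control in every other condition and HOXC9 below it, while HOXC8, HOXD1 and HOXC5 differ between conditions that share a label.

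The 2 conditions that share a label were then compared directly, which involves no control library. Between shARID1A.4 and shARID1A.2, 7 members were called higher and 3 lower in shARID1A.4 (75.8% of all genes called, and 2 members beside 23.9% of genes at 2-fold). Between shARID1B.3 and shARID1B.2, 6 were higher and 2 lower in shARID1B.3 (66.0%, and 2 members beside 13.7% at 2-fold), which with total-read or upper-quartile scaling became 5 and 3. Between shARID1A/B.4.2 and shARID1A/B.2.3, 3 were higher and 10 lower in shARID1A/B.4.2 (74.9%, and 3 members beside 22.3% at 2-fold), which with total-read scaling became 4 and 6.

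A set of 4 members was called higher in shARID1A.4, shARID1B.3 and shARID1A/B.2.3 than in the other condition of their label. They were HOXD1 (3.09 ± 0.20, 0.91 and 1.74), HOXD13 (1.33 ± 0.35, 1.08 and 1.05), HOXC8 (0.82 ± 0.03, 1.63 and 0.22) and HOXC5 (0.81 ± 0.12, 0.40 and 0.85). That is 4 of 14 beside 15.4% of all genes, and 0 of 14 were lower in all 3 beside 13.3%. Which condition of each label was grouped with which was a choice, and other groupings were not counted. HOXD13 was not in the set without shARID1B.3 replicate 2, without shARID1A/B.4.2 replicate 3 or with DESeq2, and HOXC8 was not with total-read scaling. Where at least 10 reads were required in every library, HOXD1 and HOXD13 were not tested and only HOXC5 and HOXC8 remained. The largest of these differences, that of HOXD1 between the conditions labelled shARID1A, was from 14.1, 11.3 and 8.91 to 114, 103 and 93.8 (limma adjusted p = 8.00e-13). HOXC6 differed within labels by -0.32 in shARID1A.4 against shARID1A.2, -0.11 in shARID1B.3 against shARID1B.2 and -0.01 in shARID1A/B.4.2 against shARID1A/B.2.3, the last 0.14 with total-read scaling.

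**Figure D5:**
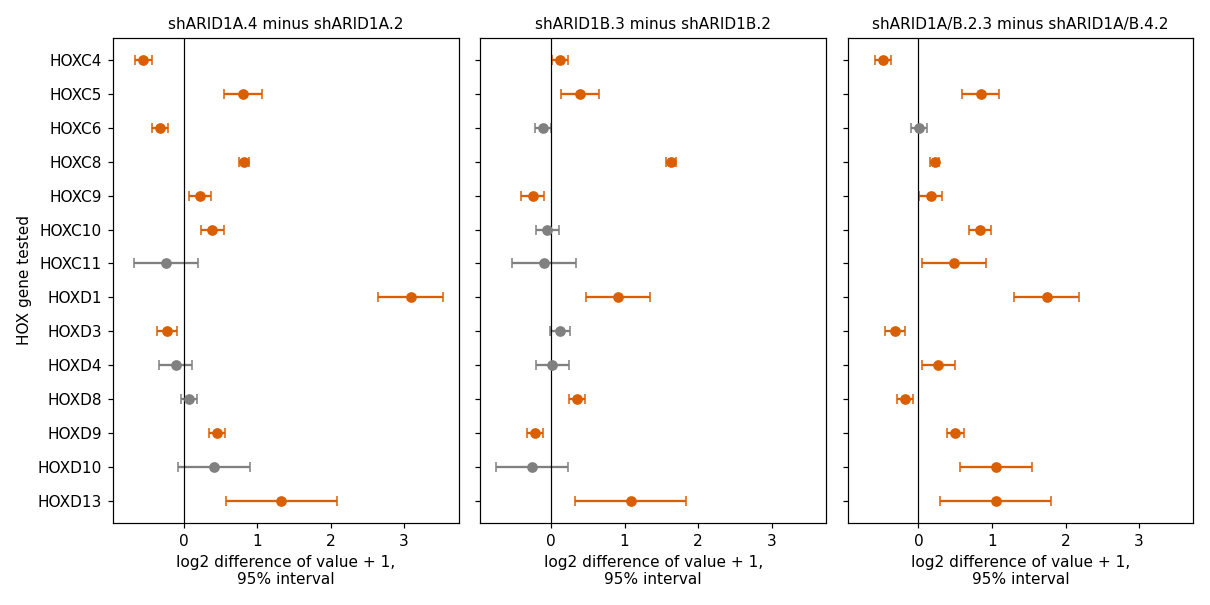
Log2 difference of the value plus 1 between the conditions of each label for the 14 HOX genes tested, with 95% intervals from limma. Orange points have an adjusted p under 0.05 and grey points do not. HOXC5, HOXC8, HOXD1 and HOXD13 are to the right of 0 in all 3 panels.

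The RNAs that are transcribed from the clusters and do not code for protein lay at 18 genes, of which 7 were tested and 11 had fewer than 3 reads in every library. The named RNAs of HOXA and HOXB were silent with their clusters: HOTTIP and HOTAIRM1 had 1 read each in all. In the order in which the 6 conditions were introduced above, HAGLROS of HOXD changed by 2.08, 0.73, 1.26, 0.48, -0.20 and 1.46 on the log2 scale against the control, and was called under shARID1A.2, shARID1B.2 and shARID1A/B.4.2. HOXC-AS1 changed by 1.49, -0.13, 0.79, -0.06, 0.11 and 0.29 and HOXC-AS2 by 0.99, 0.11, 0.83, 0.30, -0.33 and 0.23, each called under shARID1A.2 and shARID1B.2. HAGLR, antisense to HOXD1, was called lower under shARID1A.2 (-0.52), shARID1B.2 (-0.26) and shARID1B.3 (-0.26) and higher under shARID1A.4 (0.24) and shARID1A/B.2.3 (0.17). HOXD1 was at -1.57, -0.53, 0.38, 1.51 and 1.11 in the same conditions, and whether reads of one were counted for the other was not tested. Of the 7 tested, 3 were called higher and 2 lower under shARID1A.2, 1 and 2 under shARID1A.4, 4 and 1 under shARID1B.2, 0 and 2 under shARID1B.3, 2 and 1 under shARID1A/B.2.3, and 1 and 1 under shARID1A/B.4.2, beside 76.1%, 73.6%, 65.6%, 63.9%, 69.2% and 71.2% of all genes called in these comparisons.

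All 9 cofactor genes were expressed and tested. Among these TALE homeodomain partners, PKNOX1 and PBX3 fell in all 6 conditions: PBX3 by -1.01, -0.91, -0.47, -0.47, -0.57 and -1.17 in the same order, from 2068 in the control, and PKNOX1 by -1.13, -0.83, -0.74, -0.31, -0.71 and -0.81, from 1418. Of all genes, 7.54% were called lower in all 6 comparisons with the control. MEIS3 changed by 1.99, 0.59, 0.87, 1.08, -0.34 and 1.59, all called, and the low PKNOX2 by 2.30, 0.70, 2.28, -0.88, 1.31 and 0.38, all called but the last. Over the list, the numbers called higher and lower were 5 and 3 under shARID1A.2, 3 and 3 under shARID1A.4, 5 and 3 under shARID1B.2, 3 and 3 under shARID1B.3, 2 and 6 under shARID1A/B.2.3, and 3 and 5 under shARID1A/B.4.2, beside the same shares of all genes.

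Retinoic acid activates HOX genes in order along the cluster, and 10 of 16 genes of its synthesis, binding and reception were tested. CRABP2, which carries retinoic acid to its receptors, fell in all 6 conditions (-1.37, -1.49, -0.22, -0.93, -0.70 and -0.98). Calls of a lower level in all 6 were made for 7.54% of all genes. RDH10, an enzyme of its synthesis, changed by 0.37, -1.25, 0.48, -0.84, -0.76 and 1.22, all called, and RARB, a receptor and itself a target of retinoic acid, by -0.16, -1.12, -0.29, -0.67, -1.27 and -0.93, called lower in 4. The CYP26 genes, which break retinoic acid down, never exceeded 6 reads (CYP26A1). Over the list 4 were called higher and 4 lower under shARID1A.2, 3 and 7 under shARID1A.4, 2 and 2 under shARID1B.2, 1 and 8 under shARID1B.3, 3 and 7 under shARID1A/B.2.3, and 5 and 4 under shARID1A/B.4.2, beside the same shares of all genes.

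Of the 8 EVX and ParaHox genes, relatives of the HOX genes, 2 were tested. EVX2, next to HOXD13, was low, with at most 19 reads in a library, and changed by 1.57, 3.19, 0.68, 1.02, 1.62 and 0.17, called higher under shARID1A.2, shARID1A.4 and shARID1A/B.2.3. CDX1, which activates HOX genes in the embryo, fell in all 6 (-5.32, -3.96, -3.55, -2.69, -1.83 and -4.43), from 39.0 ± 1.17 in the control. As above, 7.54% of all genes were called lower in all 6. Of the genes next to the clusters, HIBADH beside HOXA (1001 in the control) and CALCOCO2 and SNX11 beside HOXB (1017 and 488) were expressed although those clusters were silent. The others beside HOXA were low, with SNX10 at 36.0 and SKAP2 at 22.6 in the control and EVX1 at no more than 2 reads in a library. Beside HOXB, TTLL6 had at most 13 reads in a library and SKAP1 was at 0 in every library. Of the 16 genes next to the 4 clusters 13 were tested, and 9 to 12 were called in a comparison with the control, beside 63.9% to 76.1% of all genes. SKAP2 beside HOXA had log2 fold changes of 1.66, 1.71, 1.14, -0.35, 1.60 and 2.01, called higher in all but shARID1B.3, and SNX10 beside it changed by 0.41, -2.54, 0.28, -1.25, -1.78 and 0.31, called lower in 3.

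The markers of the cell line and of other cells moved with the conditions too. All 10 adrenergic markers (HAND2 and others that define noradrenergic neuroblastoma) were expressed, and their values summed to 186772 to 191975 in the control, 147485 to 152894 under shARID1A.2, 472729 to 491214 under shARID1A.4, 127625 to 134321 under shARID1B.2, 199224 to 223023 under shARID1B.3, 279848 to 286975 under shARID1A/B.2.3 and 148514 to 150952 under shARID1A/B.4.2, most of it MYCN in the control. MYCN changed by -0.40, 1.77, -0.63, 0.36, 0.83 and -0.53 on the log2 scale, with its higher levels under shARID1A.4, shARID1B.3 and shARID1A/B.2.3, the conditions in which HOXD1, HOXC8, HOXC5 and HOXD13 were higher than in the other condition of the label. Its part in those differences was not tested. In the order of the conditions, 3, 4, 2, 3, 6 and 3 adrenergic markers were called higher and 6, 4, 7, 7, 4 and 6 lower. Of all genes, 63.9% to 76.1% were called in these comparisons. Of the 10 mesenchymal markers 9 were tested and PRRX1 had at most 3 reads. In the same order 3, 3, 0, 0, 3 and 1 were called higher and 6, 6, 6, 7, 5 and 6 lower, beside the same shares of all genes. Their sum was 64419 to 67004 in the control, 73674 to 75624 under shARID1A.2, 40978 to 41432 under shARID1A.4, 64371 to 67778 under shARID1B.2, 54460.2 to 62756 under shARID1B.3, 40219 to 40590.1 under shARID1A/B.2.3 and 55783 to 62977 under shARID1A/B.4.2, and most of it was VIM (54216 in the control, 68738 under shARID1A.2). Of the 6 Schwann cell markers, SOX10 was at 0 and FOXD3 had 1 read in all. Their part in the HOX results was not tested.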

How the data were processed

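TruSeq stranded mRNA libraries were made from SK-N-BE(2) cells in 7 conditions of 3. The submitters' processing notes name STAR 2.5.3a, RSEM 1.3.0, DESeq2 1.26.0 and GRCh38. The values deposited by the authors are a signal, reads per gene divided by a size factor of the library (0.841 to 1.29), which gave whole reads for 100.0% of values within 0.1. Tables of the authors' own comparisons (log2 fold changes and p-values) were not used, and 0 other columns were left out.

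Groups were the submitters' labels. Genes passing filterByExpr of edgeR 4.0.16 (18584 of 60728) were fitted by limma 3.58.1 with a trend on log2 of the value plus a pseudocount of 1, in 1 model of the 21 libraries, with Benjamini-Hochberg adjustment. Fold changes on that scale understate those of low genes. Alternatives were edgeR (quasi-likelihood, TMM) and DESeq2 1.42.0 on the recovered reads, scaling to total reads or the upper quartile, pseudocounts of 0.5 and 5, other filters, fits of only the conditions compared, a replicate block and each library left out. Against the control, limma called 11867 to 14142 genes, edgeR 11887 to 14188 and DESeq2 10939 to 13503. The fit was checked on simulated data. The labels number the replicates 1 to 3 without saying what the numbers share, so p-values measure the spread between these libraries, and replicate pairs differed by 1.55 to 4.26 times counting noise (chi-square per degree of freedom).

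Members with a mean value of at least 10 were described in every library, the others by their highest library. The other lists were described by their counts, with values for the called genes that changed most on average. HOXD13, below 10, and genes of the lists outside this rule were chosen after their values were seen. The members and lists were chosen with earlier results of these data known. Gene positions come from GENCODE release 29, matched for 39 of 39 members (8 with the same version). Some items are not reported here.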

Additional observations from a re-analysis of the deposited data

Results flagged for a closer look

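In each label, a member was looked at again where its 2 conditions were called in opposite directions against the control and differed from each other in limma. Between shARID1A.4 and shARID1A.2 this held for HOXD1 (a log2 difference of 3.09), HOXC8 (0.82) and HOXC4 (-0.54). Between shARID1B.3 and shARID1B.2 it held for HOXC8 (1.63). Between shARID1A/B.4.2 and shARID1A/B.2.3 it held for HOXD1 (-1.74), HOXC10 (-0.84) and HOXC8 (-0.22), the last not called when libraries were scaled to their total reads. Against the control, the fall of HOXC8 under shARID1A/B.4.2 became 0.07 with total-read and 0.04 with upper-quartile scaling. That of HOXD1 was not called without control replicate 1, without shARID1A/B.4.2 replicate 2 or with total-read scaling. How many of all genes meet this rule was not counted, so whether it sets these members apart from other genes is not known. In single comparisons with the control, 63.9% to 76.1% of all genes were called, which does not give that share. The 2 conditions of a label share which of ARID1A and ARID1B was low but not the shRNAs, so the shRNA used and the level of each target cannot be told apart.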

How the results depend on the processing

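Of 113 calls of HOX genes over the 12 comparisons, 93 were not counted as lost in any alternative run. When a single library was left out 17 were lost, and 16 were lost under another setting. The 93 include HOXC8 under shARID1A/B.4.2 against the control, whose sign turned with total-read and upper-quartile scaling. They also include calls of HOXD1 and HOXD13, which were not tested where at least 10 reads were required in every library. Leaving out 1 library at a time gave 11 to 13 genes called under shARID1A.2, 7 to 9 under shARID1A.4, 10 to 12 under shARID1B.2, 7 to 9 under shARID1B.3, 10 to 11 under shARID1A/B.2.3 and 6 to 8 under shARID1A/B.4.2. Between the conditions of a label it gave 10 to 11 for shARID1A, 7 to 9 for shARID1B and 10 to 13 for shARID1A/B, and for the label means 5 to 8, 7 to 8 and 9 to 12. No fold change that was called in the main run or in the leave-one-out run took the opposite sign there.

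A 2-fold minimum, chosen after seeing the data, left 3, 2, 2, 0, 2 and 1 genes against the control in the order above, and 2, 2 and 3 within labels. The 10 genes at 0 became 21 with fewer than 3 reads and 25 with fewer than 10. Scaling moved the median of all genes by up to 0.18, and raised the share of calls that were higher over all genes from 49.8% to 61.2% (shARID1A.2), 48.1% to 63.0% (shARID1B.2) and 49.3% to 64.8% (shARID1A/B.4.2) with total reads. With total reads and the upper quartile, signs turned for HOXD8 under shARID1A.2 (0.14 and 0.15) and shARID1A/B.4.2 (0.15 and 0.12) and HOXC8 under shARID1A/B.4.2 (0.0686 and 0.0438), and with total reads for HOXC6 between the shARID1A/B conditions (0.14).

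With the replicate number as a block the counts were 13, 7, 12, 8, 11 and 7 against the control, 10, 9 and 13 within labels and 6, 7 and 12 for the label means. Libraries with the same number did not deviate together (correlations -0.088 to 0.053, 0 of 63 pairs over 0.1, and 6 of 21 libraries closest to their own number). Whether they were handled together cannot be told from these correlations. Counts of members under about 10 reads were too few for a test at this depth.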
